A study of Mus musculus with 42 samples.

Results

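The immunity-related GTPases described here are 7 mouse genes, Irgm1, Irgm2, Igtp, Iigp1, Tgtp1, Tgtp2 and Ifi47. They were chosen by name, as the rows that carry these symbols among 26811 rows of gene counts, and all 7 passed the filter on low counts with 16932 genes in all. They were measured in 42 MC38 tumors, 1 tumor per mouse, by poly(A) RNA sequencing of the whole tumor. MC38 is a colon carcinoma line of C57BL/6 origin, and here its cells were placed under the skin of female F1 mice aged 8 to 12 weeks, from a cross of CC075/UncJ, a Collaborative Cross strain, with C57BL/6J. This cross is one in which MC38 tumors respond to aPD1, an antibody against the checkpoint receptor PD-1, and the experiment asked whether the early transcriptional response to aPD1 changes when GM-CSF or IL2RB is blocked.

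The 5 groups differed in antibodies alone. From engraftment on, mice received aGMCSF at 100 μg, aIL2RB at 200 μg or the matched isotype antibodies at intervals of 3 days. At a tumor volume of 75 to 110 mm3 they were given 200 μg of aPD1 or its isotype once, and the tumor was taken 48 h afterwards. The groups were isotype control (n = 5), aPD1 (n = 6), aPD1 + aGMCSF (n = 9), aPD1 + aIL2RB (n = 11) and aPD1 + aGMCSF + aIL2RB (n = 11), the last called combined blockade here. GM-CSF is a growth factor for macrophages and other myeloid cells, and IL2RB is the receptor chain through which IL-2 and IL-15 signal to T and NK cells. No group received a blocking antibody without aPD1.

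Immunity-related GTPases, or IRG proteins, are among the genes most strongly induced by interferon gamma in mouse cells, in part through the transcription factor IRF1. They guard cells against parasites and bacteria that live in vacuoles. Effector IRG proteins (Iigp1, also known as Irga6, Tgtp1 and Tgtp2, known as Irgb6, and Ifi47, known as Irgd) bind GTP, load onto the vacuole and help to break its membrane. Regulatory IRG proteins (Irgm1, Irgm2 and Igtp, also known as Irgm3) sit on the membranes of the cell's own organelles and hold the effectors in their inactive form there. The classes are told apart by the G1 motif that grips the phosphates of the nucleotide, where effectors carry lysine and regulators carry methionine. Loading also needs the ATG5 conjugation machinery of autophagy. In a tumor without infection the transcripts are best known as a readout of interferon exposure of both tumor and host cells. The human genome has largely lost the family.

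Total counts ranged from 7155486 to 24101674 per tumor, the next lowest being 15109227, and each member had between 99.5 (Tgtp1) and 8529 (Iigp1) counts in every tumor, so that depth did not limit their detection. The tumors divide along their replicate numbers into a first set of 22 tumors and a second set of 20, a division seen in the data that the labels do not name. The first set comprises isotype control replicates 1 and 2, aPD1 1 to 3, aPD1 + aGMCSF 1 to 5, aPD1 + aIL2RB 1 to 6 and combined blockade 1 to 6. Since the sets were drawn from these same data, how many genes differ between them, in level or in treatment effect, only describes the division. With treatment taken into account no member was among the genes called for a difference in level. Results are therefore also given within sets. In whole tumors, fewer cells of a type and less RNA per cell cannot be told apart, and the counts do not separate tumor cells from host cells.

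All members other than Iigp1 lie on chromosome 11 of GRCm38, in 2 neighborhoods. The first holds Irgm1 (chr11:48861968-48871683, minus strand), Tgtp1 (chr11:48985327-48994172, minus), Tgtp2 (chr11:49057194-49064206, minus) and Ifi47 (chr11:49076587-49096974, plus). The other holds Igtp (chr11:58199556-58207591, plus) and Irgm2 (chr11:58199618-58222782, plus), whose annotated spans overlap. All 7 are annotated as protein coding. The division into regulators and effectors can be read from their coding sequence. The 24 bases of the GENCODE coding sequence (GRCm38) that encode the G1 motif are shown for the 6 chromosome 11 members, with the codon of the methionine or lysine in capitals. They lie in a coding exon of each gene, at chr11:48866761-48866784 (minus strand) for Irgm1, chr11:58219695-58219718 (plus) for Irgm2, chr11:58206275-58206298 (plus) for Igtp, chr11:48987667-48987690 (minus) for Tgtp1, chr11:49059534-49059557 (minus) for Tgtp2 and chr11:49095648-49095671 (plus) for Ifi47.
Irgm1: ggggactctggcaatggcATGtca
Irgm2: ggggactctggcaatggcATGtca
Igtp: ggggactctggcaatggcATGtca
Tgtp1: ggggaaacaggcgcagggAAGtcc
Tgtp2: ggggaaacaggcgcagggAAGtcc
Ifi47: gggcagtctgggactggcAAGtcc
The 3 regulators share these 24 bases and have the methionine codon, while the 3 effectors shown have a lysine codon. Tgtp1 and Tgtp2 were identical at 1241 of 1245 coding bases (99.7%) and differed at 4.

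The stretch before the transcription start shows where interferon-activated factors could bind, and the 250 bases upstream of the RefSeq start (GRCm38.p6) were searched on both strands for 2 motifs. These were the interferon-stimulated response element bound by IRF factors (ISRE, GAAANNGAAA) and the gamma-activated site (GAS, TTCNNNGAA). Of 32851 windows of this length before RefSeq genes, 2.98% held the ISRE letters, 7.02% the GAS letters and 0.332% both. Of the 6 members with a window, 5 held ISRE and 4 held GAS. The windows of 4 members are shown, 2 regulators and 2 effectors, with ISRE and GAS matches in capitals: Irgm1 (chr11:48871421-48871670, minus strand), Irgm2 (chr11:58214727-58214976, plus), Tgtp2 (chr11:49064213-49064462, minus) and Ifi47 (chr11:49076337-49076586, plus).
Irgm1: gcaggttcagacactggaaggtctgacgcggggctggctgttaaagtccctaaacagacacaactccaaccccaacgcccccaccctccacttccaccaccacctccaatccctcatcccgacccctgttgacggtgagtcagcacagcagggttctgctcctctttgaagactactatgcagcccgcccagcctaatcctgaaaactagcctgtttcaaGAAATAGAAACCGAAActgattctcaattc
Irgm2: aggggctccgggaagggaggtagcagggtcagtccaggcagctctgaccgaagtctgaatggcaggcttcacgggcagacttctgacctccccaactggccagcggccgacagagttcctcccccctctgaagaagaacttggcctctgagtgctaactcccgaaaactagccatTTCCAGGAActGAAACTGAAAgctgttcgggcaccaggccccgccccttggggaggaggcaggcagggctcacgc
Tgtp2: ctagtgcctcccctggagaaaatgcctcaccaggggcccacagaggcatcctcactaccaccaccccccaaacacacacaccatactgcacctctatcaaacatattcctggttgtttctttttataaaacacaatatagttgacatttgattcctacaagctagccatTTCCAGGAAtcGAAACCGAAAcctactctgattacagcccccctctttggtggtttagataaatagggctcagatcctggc
Ifi47: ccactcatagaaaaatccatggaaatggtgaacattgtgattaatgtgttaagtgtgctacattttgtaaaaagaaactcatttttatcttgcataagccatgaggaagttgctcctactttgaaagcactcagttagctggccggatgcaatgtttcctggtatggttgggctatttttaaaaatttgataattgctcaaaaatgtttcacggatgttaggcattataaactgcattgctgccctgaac
Irgm1 held 2 ISRE matches that overlap by 4 bases, at 30 to 21 and 24 to 15 bases before its start, and no GAS. In Irgm2 a GAS match at 75 to 67 was followed by an ISRE match at 64 to 55. The same order, GAS and then ISRE with the same gap, was found in Igtp (45 to 37 and 34 to 25), Tgtp1 (88 to 80 and 77 to 68) and Tgtp2 (81 to 73 and 70 to 61). The RefSeq starts of Irgm1, Irgm2 and Tgtp1 lie within the gene as the annotation used for positions has it. Ifi47 held neither motif, which says only that these letters are not in this window. A match describes the sequence and was not tested for binding.

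**Figure D1:**
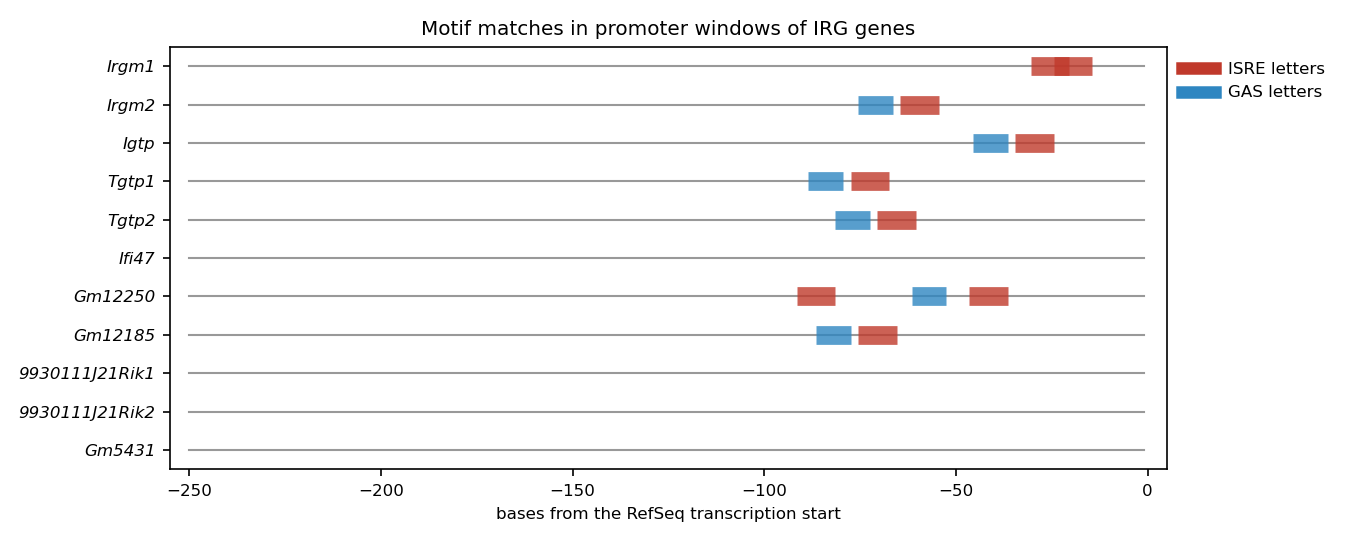
Matches to ISRE (GAAANNGAAA, red) and GAS (TTCNNNGAA, blue) in the 250 bases before the RefSeq start of 6 members and of 5 other IRG genes, plotted by distance from the start in bases. Irgq, whose window held no match, is not drawn. Irgm2, Igtp, Tgtp1 and Tgtp2 each show GAS followed by ISRE, Irgm1 shows 2 overlapping ISRE matches close to the start, and Ifi47 shows none.

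Reads that fit more than 1 gene were divided between rows, which matters for 4 members. Irgm2 and Igtp share 162 exonic bases, and the counts of 39 of 42 tumors were not whole in either row, whereas the sum of both rows was whole in all 42. Tgtp1 and Tgtp2 were likewise not whole in 39 tumors each. Their sum was whole in 14 tumors, and that of 6 rows, with Gm12185, 9930111J21Rik1, 9930111J21Rik2 and Gm5431 added, in 15. Tgtp1 also shares 223 exonic bases with Gm12185. The split between Tgtp1 and Tgtp2, and between Irgm2 and Igtp, is therefore uncertain, and summed rows are given below beside the single ones. Irgm1, Iigp1 and Ifi47 were whole in every tumor. Ifi47 shares 111 exonic bases with Olfr56, an olfactory receptor gene that had 8.70% as many counts.

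Levels are given as CPM, the counts of a tumor after TMM normalization scaled to the same total in every tumor. Per kilobase of exon, the order in isotype control tumors was Igtp (58.9 CPM per kb), Tgtp2 (29.0), Ifi47 (26.6), Iigp1 (25.3), Irgm2 (24.97), Irgm1 (24.3) and Tgtp1 (12.95). In aPD1 tumors Igtp was again highest per length (101 CPM per kb) and Tgtp1 lowest (26.1). Across groups, the mean of every member was highest in aPD1, next in isotype control and lowest in combined blockade tumors. Within the first replicate set combined blockade lay above aPD1 + aIL2RB, with means of 153 and 119.5 CPM for Irgm1 and 160.1 and 104.3 CPM for Iigp1. aPD1 + aGMCSF lay above aPD1 + aIL2RB in the means of all members but Irgm1, an order that held for all 7 in the first replicate set and was the opposite for all 7 in the second (for Irgm2, 91.98 and 69.6 CPM in the first and 78.0 and 93.9 CPM in the second). Of the neighbors in this order, no pair among the isotype control and the 3 groups given blocking antibodies passed the test for any member, as given below.

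**Figure D2:**
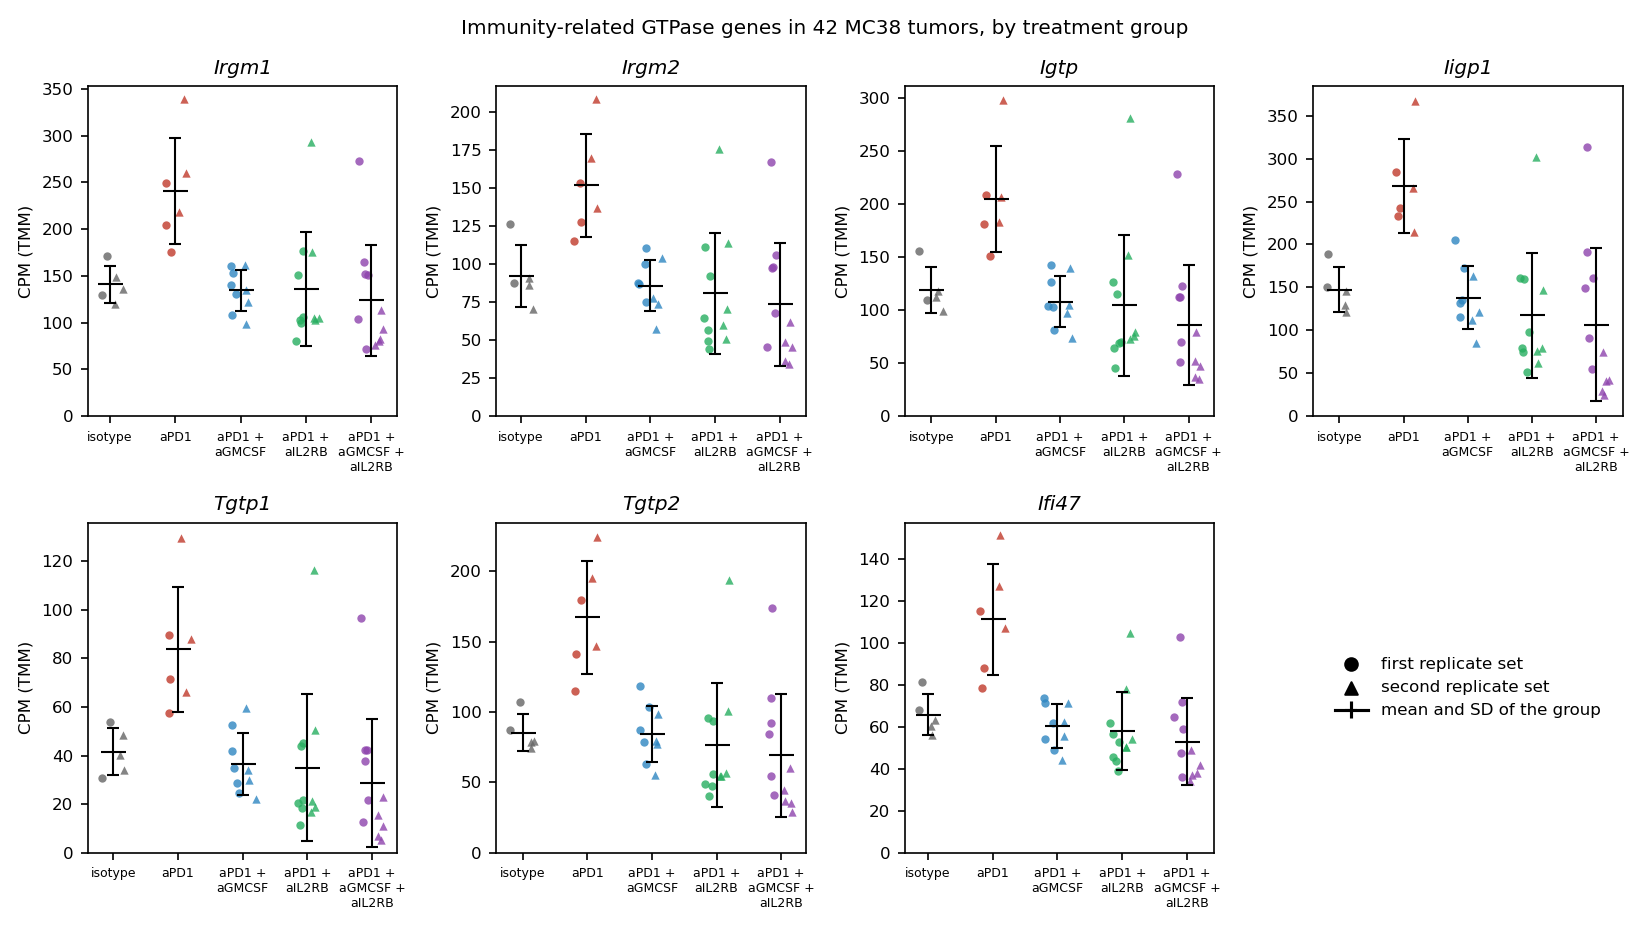
Level of each member in CPM (TMM normalized) in the 42 tumors by treatment group, with circles for the first and triangles for the second replicate set and the mean and SD of each group. aPD1 tumors sit highest in each panel, and a few aPD1 + aIL2RB and combined blockade tumors reach into their range.

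The first comparison asked what a single dose of aPD1 did to the family within 48 h. All 7 members had higher mean levels with aPD1 than in isotype control tumors, by 0.72 to 1.01 on the log2 scale, but only Ifi47 passed the test. Irgm1, a regulator that also acts in autophagy and mitochondrial quality control, was at 129, 171, 120.2, 136 and 149 CPM in isotype control replicates 1 to 5 (141 ± 19.7, SD, n = 5). With aPD1 it ranged from 175 over a median of 233 to 339 CPM (241 ± 57.1, n = 6). The lowest aPD1 tumor was above all isotype control tumors. The log2 fold change was 0.77 ± 0.27 (SE), with an adjusted p of 0.0665 by edgeR's quasi-likelihood test with Benjamini-Hochberg adjustment over all genes.

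Irgm2, the regulator of the Golgi apparatus, was at 87.6, 126, 70.1, 86.0 and 91.1 CPM in isotype control tumors (92.1 ± 20.6). aPD1 tumors had 115, 145 and 208 CPM as lowest, median and highest values (152 ± 33.7). Isotype control replicate 2 reached into the range of aPD1 tumors and the other 4 stayed under it. The same was true of Igtp, the regulator of the endoplasmic reticulum and lipid droplets, at 110.0, 156, 99.0, 112 and 118 CPM in isotype control tumors (119 ± 21.7) and 152, 195 and 298 CPM with aPD1 (205 ± 50.2). The log2 fold change of Irgm2 was 0.72 ± 0.32 (edgeR, adjusted p = 0.149) and that of Igtp 0.78 ± 0.37 (adjusted p = 0.178). Summed into 1 row, Irgm2 and Igtp gave 0.76 ± 0.34 (adjusted p = 0.165).

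Among the effectors, Iigp1, which lies apart from the others on chromosome 18 (chr18:60376027-60392634, plus strand) and is the IRG protein whose loading onto the parasite's vacuole is best described, was at 151, 189, 129, 122 and 146 CPM in isotype control tumors (147 ± 26.2). In aPD1 tumors it had a lowest value of 215, a median of 254 and a highest of 367 CPM (268 ± 54.4). The groups did not overlap, with a log2 fold change of 0.86 ± 0.44 (edgeR, adjusted p = 0.223). Tgtp1 was at 30.8, 54.0, 34.1, 40.1 and 48.6 CPM in isotype control tumors (41.5 ± 9.71) and at 57.3, 79.8 and 129.6 CPM as lowest, median and highest value with aPD1 (83.7 ± 25.7). Its near copy Tgtp2 was at 87.0, 107, 74.2, 79.6 and 78.7 CPM (85.3 ± 13.003) and with aPD1 at 115, 163 and 225 CPM (167 ± 40.1). Neither Tgtp gene overlapped between the groups. Their log2 fold changes were 1.01 ± 0.50 for Tgtp1 (adjusted p = 0.207), 0.97 ± 0.35 for Tgtp2 (adjusted p = 0.0715) and 0.99 ± 0.39 for their sum (adjusted p = 0.110 by edgeR).

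Ifi47, the effector of the Irgd class, was at 67.9, 81.5, 56.0, 63.1 and 60.4 CPM in isotype control tumors (65.8 ± 9.76). aPD1 tumors had a lowest value of 78.5, a median of 111 and a highest of 151 CPM (111 ± 26.5), so that isotype control replicate 2 alone reached into their range. Ifi47 rose with aPD1 by 0.76 ± 0.23 on the log2 scale (edgeR, adjusted p = 0.0280). It was thus 1 of 7 members called higher, where 6.17% of all genes were. At an unadjusted p under 0.05, 6 of 7 members passed, and DESeq2 also called 1 member. The median log2 fold change of the members was 0.78, against -0.00229 over all genes. Groups did not overlap for 4 of 7 members, compared with 3.38% of all genes that were higher without overlap. The count depended on the fit, and with the isotype control and aPD1 tumors alone in the model all 7 members were called higher, in a fit where 1226 genes were called in either direction. Within the first replicate set log2 fold changes were 0.30 to 0.78, with 0 members called by edgeR and 0 at an unadjusted p under 0.05, and within the second set they were 1.01 to 1.29 with 4 called. The fits of the first and second set called 2 and 2177 genes in all, in either direction. With 1 tumor left out in turn, 0 to 3 were called, with none when aPD1 replicate 4 or 6 or isotype control replicate 1, 3, 4 or 5 was left out.

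Marker lists of other cell types moved in the same comparison. With aPD1, 8 of 9 macrophage markers were higher and their summed level was 3252 to 6154 CPM against 2806 to 3390 CPM in isotype control tumors. All 11 T and NK cell markers had positive fold changes (median log2 fold change 0.97) with a sum of 101 to 229 CPM against 68.4 to 79.8 CPM, although edgeR called 0 of them, 0 passed at an unadjusted p under 0.05 and DESeq2 called 0. Ptprc, the leukocyte antigen CD45, was higher by 0.97 (edgeR, adjusted p = 0.0130). All 5 skeletal muscle markers were higher too, with a median log2 fold change of 4.37 and sums of 0.602 to 653 CPM against 0.234 to 24.3 CPM. Granulocytic markers summed to 17.5 to 43.9 CPM with aPD1 against 10.3 to 14.2 CPM, without overlap, and 1 of 4 was called higher. Of 6 fibroblast markers 3 were higher and 1 lower, of 5 endothelial markers 2 were higher, and of B cell and adipocyte markers 1 of 5 each, while 0 of 8 dendritic and 0 of 4 red blood cell markers were called. Of the 5 MC38 and epithelial markers 0 were higher, and their sum was 11.4 to 48.8 CPM over all tumors. The part of leukocyte, stromal or muscle content in the levels of the members was not tested.

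Blocking GM-CSF under aPD1 asked whether the myeloid growth factor was needed for this response. In aPD1 + aGMCSF tumors every member was lower than in aPD1 tumors, with log2 fold changes of -1.198 to -0.82, and 5 of 7 passed the test. Of all genes, 8.75% were called lower. The 3 comparisons of this kind share the same 6 aPD1 tumors, so they are not independent of each other.

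Of the regulators, Irgm1 ranged over 98.3, 135 and 162 CPM (lowest, median and highest) with aPD1 + aGMCSF (134 ± 22.1, n = 9), with every tumor below the lowest aPD1 tumor. It fell by 0.84 ± 0.23 (SE) on the log2 scale (edgeR, adjusted p = 0.0113). Irgm2 ranged over 57.1, 86.9 and 110.5 CPM (85.8 ± 16.98) and Igtp over 73.5, 104 and 143 CPM (108 ± 24.2). No aPD1 + aGMCSF tumor reached the lowest aPD1 tumor in either gene. Irgm2 fell by 0.82 ± 0.27 (adjusted p = 0.0340) and Igtp by 0.92 ± 0.31 (adjusted p = 0.0404), and their summed row fell by 0.88 ± 0.29 (adjusted p = 0.0370).

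Of the effectors, Ifi47 was at 44.2, 61.6 and 73.7 CPM as lowest, median and highest value (60.3 ± 10.4), without overlap with aPD1 tumors, and fell by 0.88 ± 0.19 (edgeR, adjusted p = 0.00172). Tgtp2 was at 55.2, 79.2 and 119 CPM (84.7 ± 19.9). In this gene 1 of 9 tumors reached the lowest aPD1 tumor, and it fell by 0.98 ± 0.29 (adjusted p = 0.0205). Tgtp1, at 21.97, 34.1 and 59.5 CPM (36.5 ± 12.6), and Iigp1, at 85.3, 132 and 205 CPM (138 ± 36.6), missed the threshold. Their log2 fold changes were -1.198 ± 0.42 (adjusted p = 0.0518) and -0.96 ± 0.37 (adjusted p = 0.0812), although no Iigp1 value overlapped. The summed Tgtp row fell by 1.05 ± 0.33 (adjusted p = 0.0277). In all, 5 of 7 members did not overlap between these groups, where 2.2% of all genes were lower without overlap. Within the first replicate set log2 fold changes were -0.99 to -0.52, with 0 members called by edgeR and 5 at an unadjusted p under 0.05, and within the second set they were -1.38 to -1.08 with 6 called. Over all genes, separate fits of the sets called 27 and 2736 in either direction. Left out in turn, single tumors gave 1 to 6 members called, 1 without aPD1 replicate 4. Ifi47 was called in each of 15 such fits, Irgm1 and Tgtp2 in 14, Irgm2 in 8, Igtp in 5, Tgtp1 in 3 and Iigp1 in 0. The T and NK cell markers summed to 40.1 to 94.3 CPM with aPD1 + aGMCSF and 2 of 11 were lower than with aPD1, with 11 of 11 lower at an unadjusted p under 0.05 and a median log2 fold change of -1.25. The macrophage markers summed to 2471 to 3020 CPM with 8 of 9 lower. Granulocytic markers, of cells that also respond to GM-CSF, summed to 9.31 to 17.2 CPM, below every aPD1 tumor, with 3 of 4 lower and a median log2 fold change of -1.64. Of 6 fibroblast markers 2 were higher and 2 lower. Their part in the change of the members was not tested.

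IL2RB blockade removes a signal that T and NK cells need. With aPD1 + aIL2RB all 7 members were lower than with aPD1 (14.5% of all genes were), with log2 fold changes of -1.26 to -0.82. Irgm1 ranged from 80.9 over a median of 105 to 293 CPM (136 ± 61.1, n = 11) and fell by 0.82 ± 0.22 (SE; edgeR, adjusted p = 0.00404). Irgm2 had 43.8, 64.3 and 176 CPM as lowest, median and highest value (80.7 ± 39.7) and fell by 0.91 ± 0.26 (adjusted p = 0.00591). Igtp had 45.5, 75.9 and 282 CPM (105 ± 66.5) and fell by 0.97 ± 0.30 (adjusted p = 0.0114). The spread was wider than with aGMCSF, and in each regulator at least 6 of 11 tumors lay below the lowest isotype control tumor, while 2 for Irgm1 and Igtp, and 1 for Irgm2, reached the aPD1 range. As 1 row, Irgm2 and Igtp fell by 0.94 ± 0.28 (adjusted p = 0.00857).

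The effectors of aPD1 + aIL2RB tumors behaved in the same manner. Iigp1 ranged over 52.0, 79.6 and 302 CPM (117 ± 72.8) and fell by 1.19 ± 0.36 on the log2 scale (edgeR, adjusted p = 0.00956). Tgtp1 ranged over 11.2, 21.3 and 117 CPM (35.01 ± 30.1) and fell by 1.26 ± 0.40 (adjusted p = 0.0155). Tgtp2 ranged over 40.4, 56.3 and 194 CPM (76.6 ± 44.4) and fell by 1.13 ± 0.28 (adjusted p = 0.00195). Ifi47 had the smallest spread, with 39.02, 52.9 and 104.5 CPM (57.9 ± 18.6), and fell by 0.94 ± 0.18 (adjusted p = 0.000108). In each effector 7 of 11 tumors were below the lowest isotype control tumor and 1 was in the aPD1 range. The sum of the Tgtp rows fell by 1.17 ± 0.32 (adjusted p = 0.00421). No member was without overlap, as were 2.99% of all genes. Leaving out single tumors gave 6 or 7 members called. In the first replicate set all 7 were called, and in the second 5, without Igtp (-0.80, adjusted p = 0.109) and Tgtp1 (-1.08, adjusted p = 0.115). Over all genes, the fits of the sets called 2713 and 3683 in either direction. Of the T and NK cell markers 10 of 11 were lower than with aPD1 and their sum was 5.12 to 50.8 CPM, with Ncr1, the NK cell receptor NKp46, at 0 in every aPD1 + aIL2RB tumor. The macrophage markers were lower in 7 of 9 (2304 to 3234 CPM in sum). Ptprc fell by 1.29 (edgeR, adjusted p = 5.2e-06). By DESeq2, 4 of 6 fibroblast markers were lower and 2 higher. Of 8 dendritic cell markers 3 were lower and 1 higher, and 2 of 5 B cell markers were lower. Their part was not tested.

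Combined blockade had the lowest group means, although no difference from the other groups given blocking antibodies passed the test. All 7 members were lower than with aPD1, where 14.3% of all genes were, and the members' median log2 fold change was -1.25, compared with -0.92 with aGMCSF and -0.97 with aIL2RB. Irgm1 had 72.1, 104 and 272 CPM as lowest, median and highest value (124 ± 59.4, n = 11) and fell by 0.96 ± 0.22 (SE; edgeR, adjusted p = 0.000911). Irgm2 had 34.1, 61.8 and 167 CPM (73.4 ± 40.2) and fell by 1.05 ± 0.26 (adjusted p = 0.00168), and Igtp had 34.7, 70.4 and 229 CPM (86.2 ± 56.8) and fell by 1.25 ± 0.30 (adjusted p = 0.00123). For every regulator 7 of 11 tumors were below the lowest isotype control tumor, and 1 tumor, replicate 1, reached the aPD1 range. The summed row of Irgm2 and Igtp fell by 1.16 ± 0.28 (adjusted p = 0.00137).

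The largest fall in this comparison was that of Tgtp1, at 5.13, 21.6 and 96.7 CPM (28.6 ± 26.3), by 1.56 ± 0.40 on the log2 scale (edgeR, adjusted p = 0.00308). Iigp1, at 24.2, 74.9 and 314 CPM (107 ± 89.4), fell by 1.34 ± 0.36 (adjusted p = 0.00384). Tgtp2, at 29.3, 54.3 and 174 CPM (69.3 ± 43.5), fell by 1.28 ± 0.28 (adjusted p = 0.000574), and the summed Tgtp row fell by 1.36 ± 0.32 (adjusted p = 0.001004). The effectors again had 7 of 11 tumors under the lowest isotype control tumor and 1 in the aPD1 range. Ifi47, at 34.1, 47.6 and 103 CPM (52.8 ± 20.7), fell by 1.08 ± 0.18 and had the lowest adjusted p (2.08e-05) of the family. No member was without overlap (0.827% of all genes were lower without it), and all 7 were called whichever single tumor was left out. Within the first replicate set, however, none was called (log2 fold changes of -0.79 to -0.45), as given below. T and NK cell markers were lower in 11 of 11, with sums of 0.872 to 110.0 CPM, and macrophage markers in 7 of 9, with sums of 1933 to 4094 CPM. Ptprc fell by 0.98 (edgeR, adjusted p = 0.000278). By DESeq2, 3 of 5 B cell and 2 of 4 granulocytic markers were lower, and 2 of 5 endothelial markers were higher. Of 6 fibroblast markers 2 were higher and 1 lower. Their part was not tested.

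**Figure D3:**
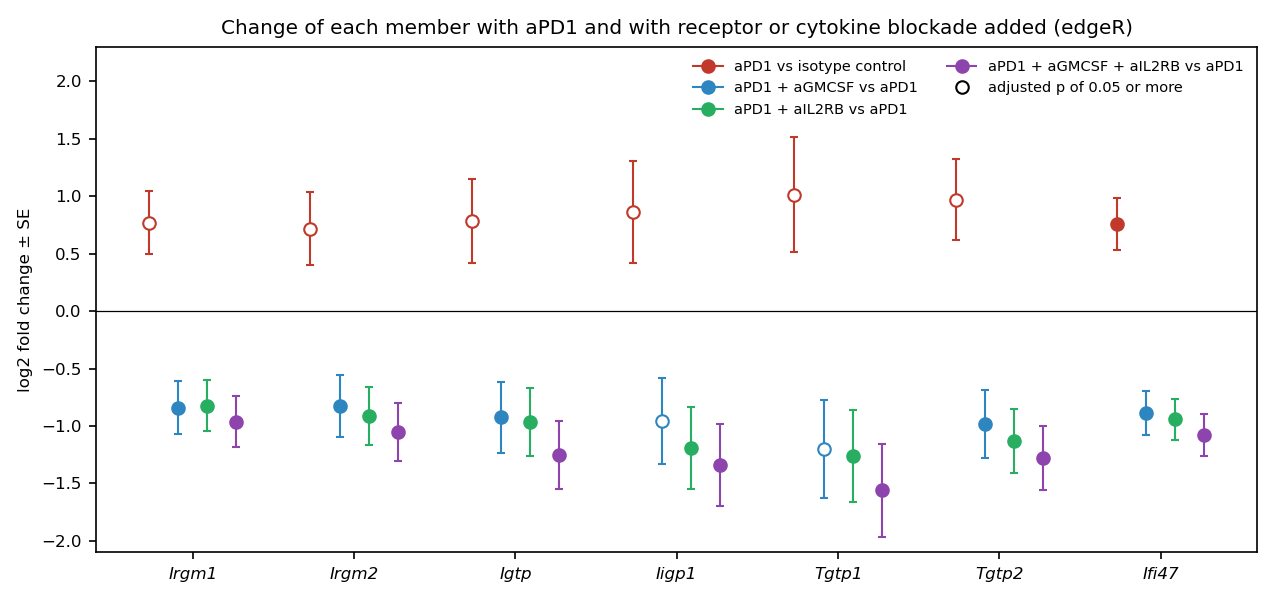
Log2 fold change with its SE (edgeR) of each member for aPD1 against isotype control and for each group with blocking antibodies against aPD1, with open symbols where the adjusted p was 0.05 or above. Every value of the first comparison is positive and every value of the other 3 is negative, down to -1.56 for Tgtp1 with combined blockade.

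Between the groups other than aPD1, no difference in a member passed the test over all tumors. In the 6 comparisons among isotype control, aPD1 + aGMCSF, aPD1 + aIL2RB and combined blockade, edgeR called 0 members, 0 passed at an unadjusted p under 0.05, and DESeq2 called 0. The share of all genes called was 0% for aPD1 + aGMCSF, 3.2% for aPD1 + aIL2RB and 10.2% for combined blockade against isotype control, 1.52% and 2.13% for the latter groups against aPD1 + aGMCSF, and 0.00591% between them. All 7 log2 fold changes were negative against isotype control, with medians of -0.10 for aPD1 + aGMCSF (lowest adjusted p 0.957), -0.19 for aPD1 + aIL2RB (lowest adjusted p 0.664) and -0.33 for combined blockade (lowest adjusted p 0.300). With aPD1 + aIL2RB they were -0.71 to -0.33 in the first replicate set and 0.01 to 0.27 in the second, and the difference between sets passed for no member in this comparison (lowest adjusted p 0.396). Fold changes of aPD1 + aIL2RB against aPD1 + aGMCSF ranged from -0.24 to 0.02, with -0.55 to -0.22 in the first and 0.14 to 0.35 in the second replicate set. Those of combined blockade against aPD1 + aGMCSF ranged from -0.38 to -0.12. Combined blockade against aPD1 + aIL2RB gave -0.30 to -0.14. Within the second replicate set, combined blockade was lower than isotype control in Igtp (-1.13, adjusted p = 0.0392), Iigp1 (-1.64, adjusted p = 0.00721) and Tgtp1 (-1.72, adjusted p = 0.0279), and lower than aPD1 + aGMCSF in Iigp1 (-1.51, adjusted p = 0.0141). Separate fits of the second set alone called 1912 and 1285 genes in all for these comparisons. In the first set no member passed either comparison (adjusted p of 0.665 to 0.995 and of 0.878 to 0.980). The difference between sets passed for no member in either (edgeR, lowest adjusted p 0.259 and 0.147, each for Iigp1).

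The average over combined blockade tumors hid a difference between the replicate sets. In the first set its tumors had mean levels of 153 CPM for Irgm1, 116 for Igtp and 160.1 for Iigp1, and in the second set 89.2, 50.2 and 42.3 CPM. Tgtp1 had 42.2 and 12.4 CPM, Tgtp2 92.7 and 41.2, Irgm2 96.8 and 45.2, and Ifi47 63.6 and 39.9 CPM. Against the aPD1 tumors of the same set, log2 fold changes were -0.79 to -0.45 in the first and -2.94 to -1.61 in the second set. With the first set alone, 0 members were called lower by combined blockade and 1 passed at an unadjusted p under 0.05, compared with 7 over all tumors. In that set 934 genes in all were called in either direction. Markers of other cells differed between the sets of combined blockade as well, with means in the first and second set of 9.54 and 0.667 CPM for Cd8a, 3.57 and 0.282 for Nkg7, 208 and 99.0 for Ptprc, 135 and 82.3 for Adgre1 and 1.13 and 0.174 for Ifng. Their part in the difference was not tested.

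The difference between sets was also put through edgeR's test. As the sets were drawn from these same data, its p-values describe the division and are no independent evidence for it. For combined blockade against aPD1 the difference was past the threshold for 4 of 7 members (9.18% of all genes), namely Irgm2 (-1.48 ± 0.44 SE in log2, adjusted p = 0.0292), Iigp1 (-2.08 ± 0.59, adjusted p = 0.0205), Tgtp2 (-1.54 ± 0.50, adjusted p = 0.0430) and Ifi47 (-1.13 ± 0.31, adjusted p = 0.0190). For Irgm1 it was -1.16 (adjusted p = 0.0668), for Igtp -1.56 (adjusted p = 0.0519) and for Tgtp1 -2.15 (adjusted p = 0.0591). Combined blockade set against aPD1 + aIL2RB had log2 fold changes of 0.35 to 0.66 in the first set, none of which passed (edgeR, adjusted p of 0.684 to 0.768), and of -1.85 to -0.76 in the second, where all members but Irgm1 (adjusted p = 0.0703) were called lower and 342 genes in all were called. That difference passed for 6 of 7 members, all but Irgm1 (-1.16, adjusted p = 0.0643), where 1.94% of all genes did. It depended on single tumors: with each left out in turn 0 to 7 members passed, with 0 when aPD1 + aIL2RB replicate 9 or combined blockade replicate 8 was left out. It passed for 1 without combined blockade replicate 1 or 9, 2 without aPD1 + aIL2RB replicate 2, and 3 without aPD1 + aIL2RB replicate 6 or combined blockade replicate 11. The set and whatever else differed between the tumors of each set cannot be told apart.

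**Figure D4:**
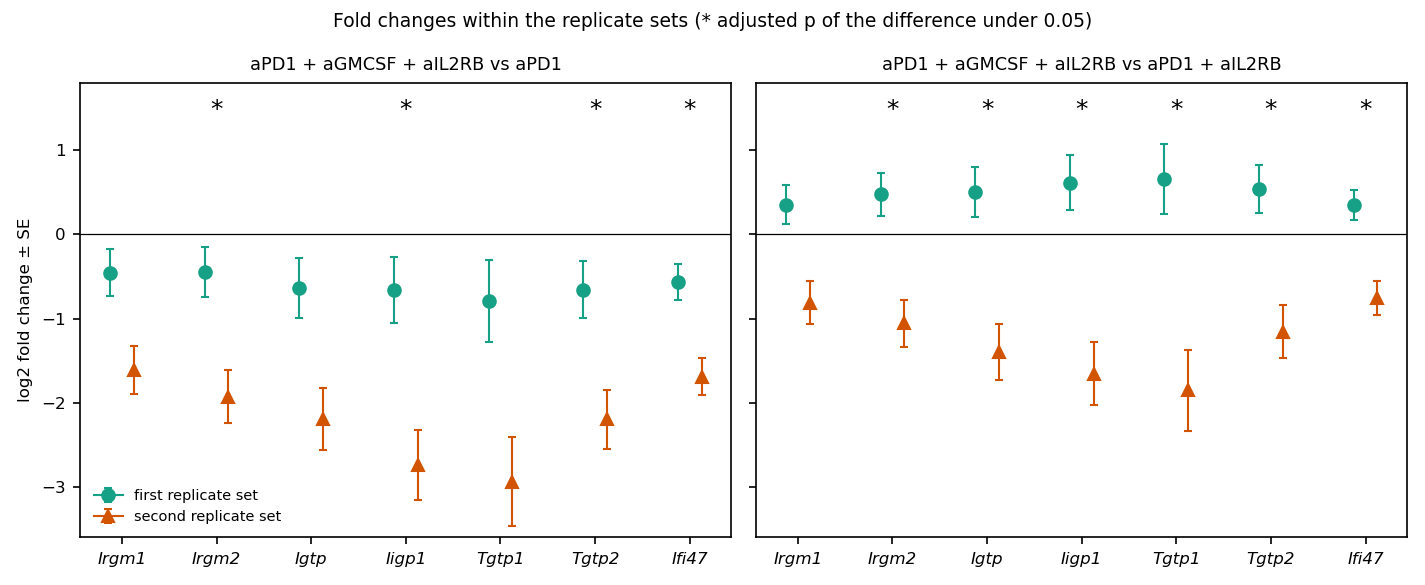
Log2 fold change with its SE (edgeR) of each member within the first (circles) and the second replicate set (triangles), for combined blockade against aPD1 (left) and against aPD1 + aIL2RB (right), with an asterisk where the adjusted p of the difference between sets was under 0.05. Against aPD1, combined blockade had folds of -0.79 to -0.45 in the first set and of -2.94 to -1.61 in the second.

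From tumor to tumor the members moved as a block. Over all 42 tumors, the correlation of log2 CPM between members ran from r = 0.914 for Iigp1 and Ifi47 to r = 0.988 for Igtp and Tgtp1, a description over tumors that share treatments and libraries. With group means subtracted it was 0.887 to 0.984. The ratio of the highest to the lowest tumor was smallest for Ifi47 (4.43) and Irgm1 (4.70), followed by Irgm2 (6.11), Tgtp2 (7.69) and Igtp (8.59), and was largest for Iigp1 (15.1) and Tgtp1 (25.2). The highest tumor was aPD1 replicate 4 for all 7 members. The lowest was combined blockade replicate 8 for 5 of them, replicate 3 for Irgm1 and replicate 9 for Ifi47.

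Single tumors were extreme for the whole family. aPD1 + aIL2RB replicate 9 was highest of its group for all 7, with 293 CPM of Irgm1, 282 of Igtp, 302 of Iigp1 and 117 of Tgtp1, all within the range of aPD1 tumors. It had 332 CPM of Cxcl9, the interferon-induced chemokine, and 3.65 of Ifng, but only 3.04 of Cd8a, a marker of cytotoxic T cells. Replicate 2 of the same group was lowest for all 7 members, with 42.2 CPM of Cxcl9, 0.426 of Ifng and 0.373 of Cd8a. In combined blockade, replicate 1 was highest for all 7, with 272 CPM of Irgm1 and 314 of Iigp1, beside 401 CPM of Cxcl9, 3.25 of Ifng and 25.6 of Cd8a. Replicate 8 of that group had 24.2 CPM of Iigp1 and 5.13 of Tgtp1, with 9.96 CPM of Cxcl9 and no count of Ifng or Cd8a. In isotype control tumors replicate 2 was highest for all 7, and in aPD1 + aGMCSF replicate 8 was lowest for all 7.

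**Figure D5:**
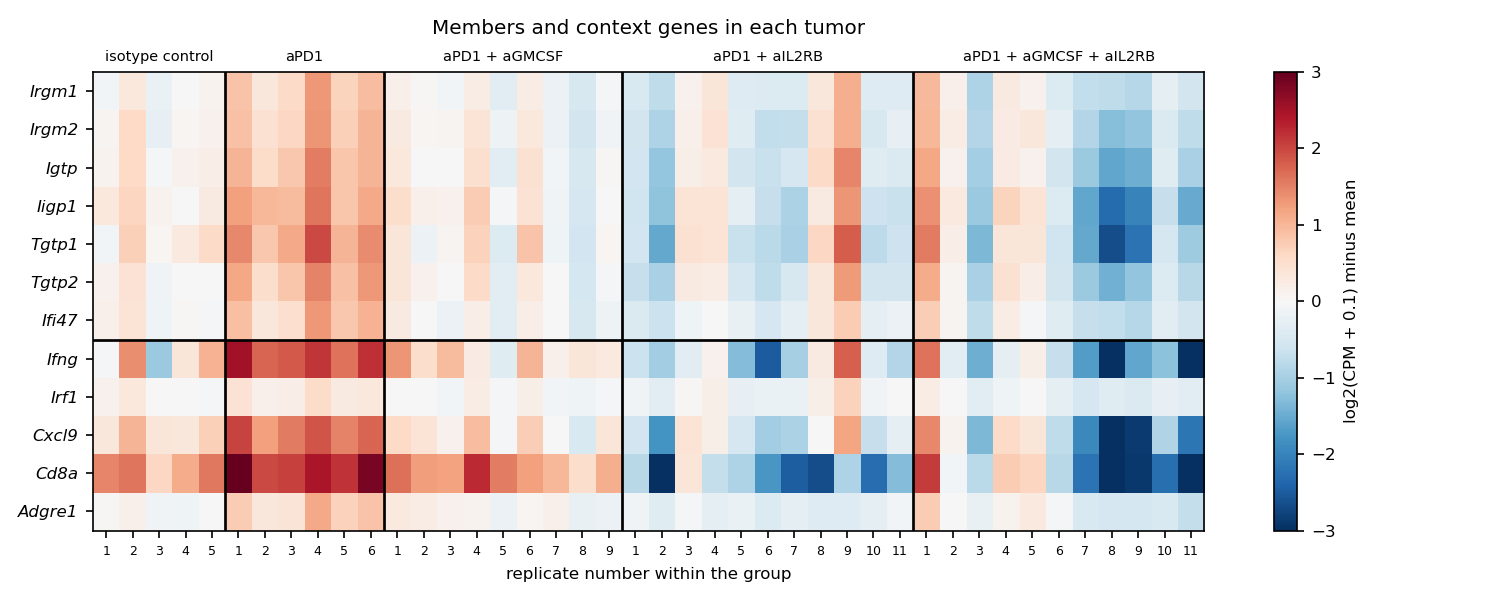
Heat map of log2(CPM + 0.1) minus each gene's mean over the 42 tumors, with colors capped at 3 in either direction, for the 7 members and for Ifng, Irf1, Cxcl9, Cd8a and Adgre1. Columns are tumors in the order of groups and replicates, and the members form 1 block in which aPD1 tumors are high and combined blockade replicate 8 is low.

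Further IRG genes were tested beside the members. Of 9 listed, 8 passed the filter, and Irgc1, a testis gene, had at most 6 counts in a tumor. With aPD1, 3 of 8 rose (6.17% of all genes), all from the stretch between Irgm1 and Tgtp2. These were Gm5431 (log2 fold change 1.60 ± 0.33, edgeR, adjusted p = 0.00235), 9930111J21Rik2 (1.00 ± 0.23, adjusted p = 0.00611) and 9930111J21Rik1 (1.11 ± 0.28, adjusted p = 0.0116). The counts of these rows were not whole in 36, 40 and 42 of 42 tumors, so the split of reads between them and their neighbors is uncertain. At an unadjusted p under 0.05, 7 of 8 IRG genes passed. Against aPD1, 6 of 8 fell with aGMCSF, with aIL2RB and with combined blockade. Gm4951, a neighbor of Iigp1, fell by 1.17 (adjusted p = 0.0105), 1.43 (adjusted p = 0.000348) and 1.53 (adjusted p = 0.000185) in this order, and Gm12250, known as Irgb10, had log2 fold changes of -1.23, -1.347 and -1.46. F830016B08Rik had fold changes of -0.91, -0.90 and -0.81 that did not pass (adjusted p = 0.149, 0.0917 and 0.134).

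The remaining IRG genes moved less uniformly. Gm5431 fell by 1.48 and 1.54 with aGMCSF and aIL2RB and by 0.91 with combined blockade. Against isotype control its fold change with combined blockade was 0.69 (edgeR, adjusted p = 0.124), and those of 9930111J21Rik1 (0.46, adjusted p = 0.239) and 9930111J21Rik2 (0.30, adjusted p = 0.371) were positive too, while Gm4951 (-0.47) and Gm12250 (-0.48) were negative like the members. None of these passed. Irgq, a distant relative that lacks a working GTP-binding site and is a receptor for selective autophagy, went the other way, with a rise by 0.22 (adjusted p = 0.0316) with aIL2RB and by 0.21 (adjusted p = 0.0473) with combined blockade, comparisons with aPD1 in which 13% and 13.1% of all genes were higher. DESeq2 did not call it higher with combined blockade. In the promoter search Gm12250 had 2 ISRE matches (91 to 82 and 46 to 37) and a GAS match (61 to 53) before its start. Gm12185 had the same GAS and ISRE order as the Tgtp genes (86 to 78 and 75 to 66), and 9930111J21Rik1, 9930111J21Rik2, Gm5431 and Irgq had no match.

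Upstream of the family stands interferon gamma itself. Ifng, made by T and NK cells, averaged 1.51 CPM in isotype control, 4.36 in aPD1, 1.53 in aPD1 + aGMCSF, 0.896 in aPD1 + aIL2RB and 0.697 in combined blockade tumors. Its log2 fold change was 1.53 with aPD1 (edgeR, adjusted p = 0.129), and against aPD1 it was -1.51 with aGMCSF (adjusted p = 0.0514). It fell by 2.28 with aIL2RB (adjusted p = 0.000683) and fell by 2.65 with combined blockade (adjusted p = 0.000175). Of 5 tested interferon ligand and receptor genes, 2 rose with aPD1, Ifnar2, a chain of the type I receptor, by 0.38 and Ifngr2, the signaling chain of the interferon gamma receptor, by 0.19. Ifnar2 fell by 0.27, 0.33 and 0.40 in the 3 groups with blocking antibodies.

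Signaling and transcription factors of the pathway came next. Of 13 tested, 7 rose with aPD1, and 10 fell with aGMCSF, 12 with aIL2RB and 12 with combined blockade. By edgeR's test, Irf8, a factor of macrophages and dendritic cells, rose by 0.84, and Irf7, the amplifier of type I interferon, by 1.94. With blocking antibodies Irf7 fell by 1.53 (aGMCSF), 1.41 (aIL2RB) and 1.10 (combined blockade). Batf2, a partner of IRF1 in macrophages, had log2 fold changes of -1.21, -1.21 and -1.501. Ciita, the master regulator of MHC class II, fell by 1.74 with aIL2RB and by 1.72 with combined blockade. Irf1, which drives IRG promoters, moved little, with 0.23 with aPD1 (adjusted p = 0.242) and falls by 0.31 (adjusted p = 0.0429), 0.31 (adjusted p = 0.0208) and 0.52 (adjusted p = 0.000143). Irf7 was also higher with combined blockade than in isotype control tumors, by 0.84 (adjusted p = 0.0326), where no member was called.

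Of 5 inhibitors of the pathway, 1 rose with aPD1, Usp18, which silences the type I receptor, by 1.27. It fell by 0.99, 0.90 and 0.63 in the order of groups above. Socs3, a feedback inhibitor of cytokine receptors, fell by 0.62, 0.81 and 0.93, and Socs1, the main brake on interferon gamma signaling, by 0.73 with combined blockade. In all 2, 2 and 3 of the 5 fell.

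Guanylate-binding proteins work beside IRG proteins at the vacuole. Of 11 tested, 2 rose with aPD1, Gbp2b by 2.12 and Gbp5, which promotes inflammasome activity, by 1.18, and the median log2 fold change was 0.86. They fell in 4 of 11 with aGMCSF, in 9 with aIL2RB and in 9 with combined blockade, with medians of -0.80, -0.89 and -1.04. Gbp2b fell by 1.85, 3.14 and 2.87, and Gbp8 by 1.60 with aIL2RB and 1.62 with combined blockade. These medians were close to those of the IRG members, whose difference from them was not tested.

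Autophagy genes of the conjugation machinery place IRG proteins on their target. Of 10 tested, edgeR called 0 with aPD1, 0 passed at an unadjusted p under 0.05 and DESeq2 called 0. With aGMCSF 1 fell, Gabarap, by 0.23. With aIL2RB 3 were higher than with aPD1, Map1lc3a by 0.54, Atg12, the ubiquitin-like partner of ATG5, by 0.19 and Gabarapl1 by 0.19. With combined blockade 2 were higher, Map1lc3a by 0.39 and Atg12 by 0.24, and 2 were lower, with Gabarap at -0.23, shares near the 13.1% and 14.3% of all genes.

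The genes whose pattern over the 42 tumors was most like that of the family were found by Pearson's r with the mean standardized log2 CPM of the members, among 12408 genes with a mean log2 CPM of at least 1. Among the 10 most like it were Gbp2 (r = 0.982), Gbp3 (0.974), Gm12250 (0.973), Gbp4 (0.970), Gbp6 (0.968), Gbp5 (0.968), Fcgr4, an activating Fc receptor (0.954), Tap1, the peptide transporter of MHC class I (0.954), and H2-T23, a nonclassical MHC class I gene (0.953). Thus 5 of the 10 were guanylate-binding proteins and 1 was itself an IRG gene. Cxcl9 ranked 23rd (0.943) and Irf1 33rd (0.933). Markers of leukocytes came after them, Ptprc at rank 182 (0.869), Adgre1, the macrophage antigen F4/80, at 517 (0.786), Nkg7, of cytotoxic granules, at 525 (0.784) and Cd8a at 592 (0.768). Of the IRG genes that are not members, Gm4951 was at rank 19 and Gm12185 at 20, while 9930111J21Rik2 (501), F830016B08Rik (843), Gm5431 (945) and 9930111J21Rik1 (1046) were far less like them, and Irgq was at 11271 with r = -0.506. These are correlations over tumors that share groups and replicate sets.

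Cd8a and Nkg7 had means below those of isotype control tumors in the groups given aIL2RB. Cd8a averaged 14.9 CPM in isotype control, 33.3 in aPD1 and 15.5 in aPD1 + aGMCSF tumors, and 2.54 and 5.51 CPM with aIL2RB and combined blockade. Against isotype control 9 of 11 T and NK cell markers were lower with aIL2RB and 7 with combined blockade, comparisons in which 0 of 7 members were called. Nkg7 followed the same course, with 6.90, 15.6, 5.51, 1.55 and 2.08 CPM in the 5 groups. Adgre1 stayed between 100.1 and 123 CPM in all groups but aPD1 (196 CPM).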

How the data were processed

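Tumors were frozen in medium with DMSO, and poly(A) libraries were made from RNeasy extracts with the KAPA mRNA HyperPrep kit. The authors aligned reads with Bowtie 1.2.3 to transcriptomes of the Collaborative Cross founder strains, based on GRCm38 (mm10), and deposited expected counts per gene, summed over haplotypes and not normalized. Of the values, 15.2% were not whole, since reads shared by genes were divided. Sums of rows were taken as whole within a tolerance of 0.001. Ensembl identifiers were matched to GENCODE symbols for 26629 of 26811 rows, with an earlier release than the authors' on the same build. Promoter windows are from RefSeq (GRCm38.p6), and coding sequences are from the same GENCODE release as the gene positions.

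The rounded counts were tested with edgeR 4.0.16 (R 4.3.3), using filterByExpr (minimum count 10, minimum total 15), TMM normalization and quasi-likelihood tests with all 42 tumors in 1 model. SEs were derived from the fold change and its F statistic. P-values were adjusted over 16932 genes within each comparison (Benjamini-Hochberg, threshold 0.05). Replicates are separate tumors per the labels, so p-values measure the spread between mice. Log2 CPM used a prior count of 2. Python 3.11.15 with pandas 2.3.3 and numpy 2.4.6 was used for tables, and DESeq2 1.42.0, the tool of the original study, as an alternative. Others were different normalizations and filters, only the groups compared, the replicate number as a block, the replicate set as a term, single sets, and each tumor left out. Fold changes and adjusted p printed for a replicate set are from 1 model of all 42 tumors with a mean for each group in each set. Counts of all genes called in a set, and of members at an unadjusted p, are from fits of that set alone. Procedures were tested on simulated data.

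Members, lists and tests were chosen with earlier results of these data known. All 7 members, all other IRG genes and 7 context genes were named, as were up to 3 genes with the largest change in each list and genes among the 10 most like the members. A further gene that these rules name is not reported here. Alternatives that sum Irgm2 and Igtp, rescale the set difference or leave tumors out of it were added after seeing the data. Tgtp1 was the member with the lowest counts.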

Additional observations from a re-analysis of the deposited data

Results flagged for a closer look

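The change from aPD1 to combined blockade differed between the replicate sets in 4 members, by the edgeR test of the difference itself (second set minus first set, log2 scale). The sets were drawn from these same data, so this test only describes the division. The difference was -1.48 for Irgm2, -2.08 for Iigp1, -1.54 for Tgtp2 and -1.13 for Ifi47.

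The change from aPD1 + aIL2RB to combined blockade differed between the sets in 6 members by the same test. The difference was -1.53 for Irgm2, -1.91 for Igtp, -2.27 for Iigp1, -2.51 for Tgtp1, -1.70 for Tgtp2 and -1.10 for Ifi47. The first-set fold changes of these members were positive and none passed the test, while those of the second set were negative and passed. In all, 70 such differences were tested for the members, and these 10 passed. A gap between the most extreme tumor and the rest of its group was looked for in 21 combinations of member and group with 4 to 10 tumors, and 0 were large enough. The groups of 11 tumors, aPD1 + aIL2RB and combined blockade, were outside this search. Replicate 9 of the former had 117 CPM of Tgtp1 against a group median of 21.3, and replicate 1 of the latter 96.7 against 21.6.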

How the results depend on the processing

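For aPD1 against isotype control, 2 members were called with at least 10 counts required in every tumor, 7 with only the groups compared in the fit, 0 in the first and 4 in the second replicate set, against 1 in all, and 0 to 3 with single tumors left out. For aPD1 + aGMCSF against aPD1, the count of 5 became 3 with the replicate number as a block, 0 in the first set and 1 to 6 with single tumors left out. For aPD1 + aIL2RB against aPD1 it was 6 to 7 with single tumors left out, 5 with the block, 7 in the first set and 5 in the second. For combined blockade against aPD1 it was 0 in the first set and otherwise 7, also with the block and with any tumor left out (7 to 7). In the second set alone combined blockade gave 3 called members against isotype control, 1 against aPD1 + aGMCSF and 6 against aPD1 + aIL2RB, where the full fit gave 0, and leaving out single tumors gave 0 in the 6 comparisons without the aPD1 group. The cause of these changes was not tested, nor was the part of the smaller number of tumors in a set. The set difference of combined blockade against aPD1 + aIL2RB gave 0 to 7 members with single tumors left out. Replicate numbers did not pair the tumors: deviations of tumors with the same number had a mean correlation of 0.0346, over 0.1 in 16 of 67 pairs. Of the 10 genes most like the members, 6 were shared in the first set alone, 7 in the second and 8 with group means subtracted. No member changed direction in the 4 comparisons that involve the aPD1 group under any alternative. Without combined blockade replicate 4, the tumor with the lowest total, 7 members were still called against aPD1.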

Other observations

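Of 12 tested genes of the type I interferon response, 11 rose with aPD1, led by Oas3 (log2 fold change 1.99), Mx1 (1.79) and Oas2 (1.52), which sense or block viral RNA. Against aPD1, 11 fell with aGMCSF, 9 with aIL2RB and 8 with combined blockade. Against isotype control, 6 of 12 were higher with combined blockade, among them Oas2 (0.95), Mx1 (0.93) and Ifit3 (0.85), where edgeR called 0 of 7 IRG members and all 7 fold changes were negative. With aIL2RB 1 was higher than in isotype control tumors, Ddx58, the RNA sensor RIG-I, by 0.29 (adjusted p = 0.0481). Between combined blockade and aPD1 + aGMCSF, 3 were higher, Ifit3 by 0.66, Rsad2 by 0.54 and Ifit1 by 0.51. The difference between this list and the members was not tested.

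Skeletal muscle markers, all 5 of which were higher with aPD1 than in isotype control tumors, had negative fold changes against aPD1 in each group given blocking antibodies. The median log2 fold change was -1.66 with aGMCSF (0 of 5 called lower by edgeR, 2 at an unadjusted p under 0.05, DESeq2 0), -2.68 with aIL2RB (5 called) and -1.83 with combined blockade (1 called). Their part in the levels of the members was not tested.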
